A study of Mus musculus with 3 samples.

Results

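The genes examined were 10 genes of myoblast fusion and cell adhesion: Mymk, Mymx, Cdh15, Cdh2, Cdh11, Jam2, Jam3, Bin3, Adgrb1 and Nphs1. They were chosen by name for their known roles, and matched through the transcript identifiers to 10 of the 35562 genes in the tables. Levels came from RNA-seq of edited Dmd-mdx; Pax7-nGFP myoblasts, kept as 3 lines numbered 66, 67 and 72, with 1 library per line. The lines were grown from satellite cells (muscle stem cells) that developed in mouse-mouse chimeras from injected iPSCs. All 3 lines carried the Dmd-mdx mutation corrected by CRISPR/Cas9, together with Pax7-nGFP, a nuclear GFP reporter expressed from Pax7, and were purified by FACS. The study describes host embryos with the alleles Pax7 Cre/ERT2 and Rosa26 lsl-DTA, in which tamoxifen kills host cells that express Pax7. The labels do not give the chimera, its age or any tamoxifen for each line, and with 1 library per line a feature of the line and one of the library cannot be told apart. The 3 lines therefore form 1 condition with n = 3, and the values below describe it without a test between groups. An exact sign-flip test over 3 lines could not go below p = 0.25.

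Skeletal muscle fibres form when mononucleated myoblasts leave the cell cycle, adhere to each other and fuse their plasma membranes. Cadherins and junctional adhesion molecules hold the cells together, actin regulators push the membranes into close contact, and the muscle-specific membrane proteins myomaker (Mymk) and myomerger (Mymx) carry out the fusion itself. Mymk acts in the early mixing of the outer membrane layers, and Mymx, a small protein also called myomixer or minion, acts in the opening of the fusion pore.

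Sequences of the fusogens are shown because Mymx is short enough to be read whole and because the transcripts of Mymk begin in different exons. Coordinates and transcripts are those of GENCODE M21 (GRCm38). The coding sequence of Mymx lies in 1 exon of transcript Mymx-203, at chr17:45601417-45601671 on the minus strand. Its 252 coding bases give 84 residues, and the capitals mark the start and stop codons.
Mymx-203 coding sequence: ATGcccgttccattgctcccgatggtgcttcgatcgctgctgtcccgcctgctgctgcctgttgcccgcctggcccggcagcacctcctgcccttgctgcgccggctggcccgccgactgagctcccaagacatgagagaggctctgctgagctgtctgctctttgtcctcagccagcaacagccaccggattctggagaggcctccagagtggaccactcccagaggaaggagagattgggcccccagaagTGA

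Mymk-201 has 663 coding bases for 221 residues, and Mymk-202, which begins in an exon within the gene, has 540 coding bases for 180 residues. In the starts of their coding sequences below, on the minus strand of chromosome 2, capitals mark the coding bases of the exon that each transcript has to itself (135 bases in Mymk-201 and 12 in Mymk-202). The lower-case bases belong to the next exon, which both use. The exon with the start codon spans chr2:27071881-27072179 in Mymk-201 and chr2:27067740-27067868 in Mymk-202.
Mymk-201 start: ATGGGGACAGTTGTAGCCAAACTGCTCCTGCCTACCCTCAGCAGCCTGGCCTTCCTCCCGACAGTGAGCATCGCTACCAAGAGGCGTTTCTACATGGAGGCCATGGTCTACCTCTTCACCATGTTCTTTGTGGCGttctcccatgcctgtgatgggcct
Mymk-202 start: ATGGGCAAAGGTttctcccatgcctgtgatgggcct

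The 3 libraries held between 66972426 and 73274315 estimated counts. All 5 myoblast markers (Pax7, Myf5, Myod1, Des and Itga7) were at or above 10 TPM in every line, and their summed level ranged from 1622 to 1815 TPM. TPM divides counts by transcript length and scales each library to a total of 1000000, so that levels of different genes can be set side by side. Of 5 fibroblast markers only Col3a1, a fibrillar collagen, reached 1 TPM, at 145 TPM in line 66, 205 TPM in line 67 and 270 TPM in line 72, while Lum and Dpt were at 0 in all lines and Dcn had at most 4 counts. The summed levels of the endothelial (0.759 to 1.80 TPM), immune (3.07 to 4.47 TPM), Schwann cell (1.43 to 1.89 TPM) and neuron markers (4.95 to 8.56 TPM) were low. Among these, Adgre1 was at 0 in every line, Sox10, Rbfox3 and S100b had at most 2 counts, and Ptprc at most 7. Dmd, the gene that was edited, was at 1.97, 4.61 and 3.67 TPM in lines 66, 67 and 72, and the tables hold no measure of the edited exon.

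In every line all 10 genes had more than 3 estimated counts (a count of 0 is compatible with up to 3), against 51.1% of all genes. Of the 10, 8 were at or above 10 TPM in every line, against 22.6% of all genes, and the exceptions were Adgrb1 and Nphs1. The median level of the 10 genes, as log2(TPM + 1), was 5.72 ± 0.27 (SD, n = 3), against 4.38 ± 0.03 for the 12528 genes averaging 1 TPM or more and 0.13 ± 0.01 for all genes. In order of mean level they ran from Cdh2 through Cdh15, Mymk, Jam3, Jam2, Cdh11, Bin3, Mymx and Nphs1 to Adgrb1. The lines of neighbouring genes did not overlap for 5 of the 9 pairs, and for Nphs1 and Adgrb1 by the least (0.4193 against 0.4178 TPM). Those that overlapped were Mymk and Jam3 (Mymk higher in 3 of 3 lines), Jam3 and Jam2, Jam2 and Cdh11, and Bin3 and Mymx (the upper gene higher in 2 of 3 lines for each).

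**Figure D1:**
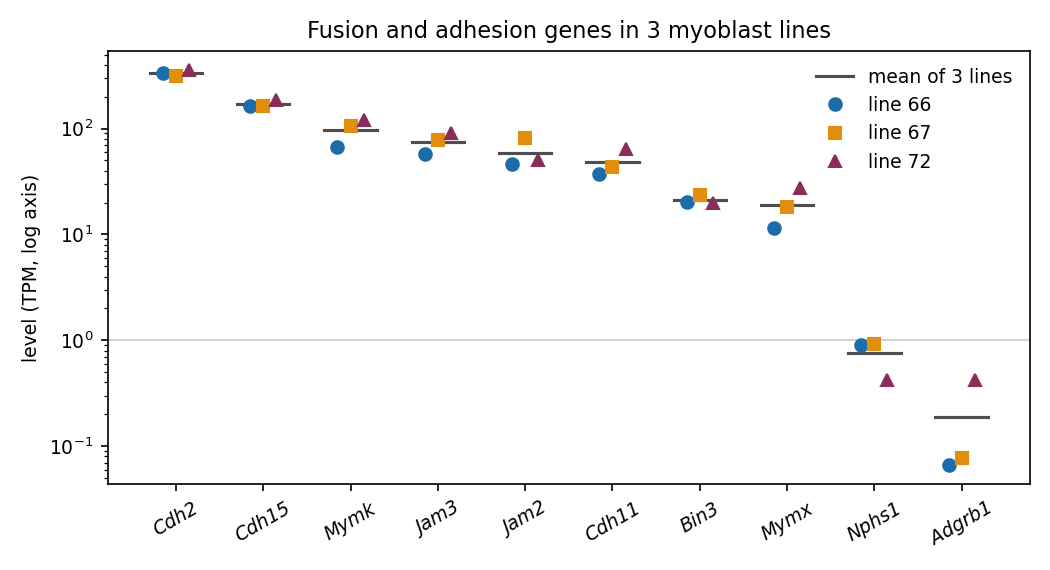
Level of each gene in TPM (log axis) in lines 66, 67 and 72, with the mean of the 3 lines as a bar. Cdh2 and Cdh15 are highest with little spread, 8 genes lie above 10 TPM in all lines, and Nphs1 and Adgrb1 lie below 1 TPM in all lines.

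Mymk (chr2:27061636-27072179, minus strand) was at 67.6 TPM in line 66, 106 TPM in line 67 and 120 TPM in line 72, from 4844, 6859 and 7929 estimated counts. Line 66 was the lowest and line 72 the highest, 1.77-fold apart, with a mean of 97.6 ± 26.8 TPM (SD, n = 3). This mean was above that of 95.3% of all genes. The full-length Mymk-201 held all of the level in line 66, 90.4% in line 67 and 84.6% in line 72. Mymk-202 was listed at 0 counts in line 66, 556 counts (10.2 TPM) in line 67 and 1047 counts (18.5 TPM) in line 72. The transcripts differ only by the 129 and 299 bases of the exons shown above and by a few bases at the other end, so their split rests on reads within these bases, while the sum over the gene does not depend on it.

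Mymx (chr17:45600971-45602102, minus strand) was lower than Mymk in every line, at 11.5, 18.3 and 27.4 TPM in lines 66, 67 and 72. The estimated counts were 421 (95% Poisson interval 382 to 463), 617 (569 to 668) and 936 (877 to 998), intervals that cover counting error only and did not overlap between lines. Its mean was 19.1 ± 7.96 TPM (SD, n = 3), and its lines were 2.38-fold apart. Mymx was the only one of the 8 genes averaging 1 TPM or more whose lines were over 2-fold apart, against 7.19% of all 12528 such genes. Transcript Mymx-203, whose coding sequence is printed above, held between 93.8% and 99.3% of the level. The level of Mymx was 17.0% of that of Mymk in line 66, 17.3% in line 67 and 22.9% in line 72.

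Myog (myogenin), the transcription factor that starts terminal differentiation, was at 168, 222 and 310 TPM in lines 66, 67 and 72. Set against Myog, Mymk was 40.2%, 47.6% and 38.5% of its level in lines 66, 67 and 72, and Mymx 6.84%, 8.25% and 8.82%. These ratios were 1.24-fold and 1.29-fold apart between lines, less than the 1.77-fold and 2.38-fold of the levels themselves. Set against Pax7, Mymk was 49.8%, 74.0% and 77.7% of its level, 1.56-fold apart, so a narrower range was not limited to Myog. In bulk samples a smaller share of differentiating cells and less RNA per cell cannot be told apart. The relatives of the fusogens were low. The Mymk paralogs Tmem8b (2.69, 3.41 and 3.47 TPM) and Pgap6 (1.35, 1.20 and 1.04 TPM) were far below Mymk, and the syncytins Syna and Synb, fusogens of the placenta, were at most at 0.0520 TPM.

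Among the adhesion genes, Cdh2 (N-cadherin; chr18:16588877-16809246, minus strand) was the highest of the 10 genes, at 336, 313 and 354 TPM in lines 66, 67 and 72. Its mean of 335 ± 20.5 TPM (SD, n = 3) was above that of 98.8% of all genes, and the lines were 1.13-fold apart, the narrowest range of the 10. The shorter coding transcript Cdh2-202 (2547 coding bases, against 2718 in Cdh2-201), which starts from an exon of its own, held between 84.7% and 86.0% of the level. Cdh2-201 was at 51.4, 45.5 and 49.6 TPM in lines 66, 67 and 72.

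Cdh15 (M-cadherin; chr8:122847966-122867397, plus strand), a cadherin of satellite cells and myoblasts, was at 162 TPM in lines 66 and 67 and at 187 TPM in line 72, on 1 annotated transcript. Its mean was 170 ± 14.4 TPM (SD, n = 3), and the lines were 1.16-fold apart. The gene lies within the span of the readthrough gene Gm20388 (35.1 to 37.8 TPM), with which it shared no 31-base word. Cdh2 was at 207%, 194% and 189.5% of the level of Cdh15 in lines 66, 67 and 72, and the lines of the genes did not overlap. Together they made up 80.8%, 77.2% and 79.3% of the summed level of 21 cadherins.

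Cdh11 (OB-cadherin; chr8:102632095-102785642, minus strand), a cadherin best known from mesenchymal cells and osteoblasts, was at 37.2 TPM in line 66, 43.6 TPM in line 67 and 63.9 TPM in line 72. Line 72 stood above the other lines, with 14892 estimated counts against 9190 and 9839, and the mean was 48.2 ± 13.97 TPM (SD, n = 3). Cdh11 made up 6.02%, 7.08% and 9.37% of the summed cadherins in lines 66, 67 and 72. Its order over the lines was also that of Col3a1 and of Myog: it was 25.6%, 21.3% and 23.7% of the level of Col3a1 and 22.1%, 19.6% and 20.6% of that of Myog. Apart from Col3a1 the fibroblast markers were below 1 TPM in every line, as given above, and the part of fibroblasts or of differentiating cells in the level of Cdh11 was not tested.

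Of the 18 other cadherins, 2 were at or above 10 TPM in every line, against 22.6% of all genes. These were Cdh13 (T-cadherin, which is held in the membrane by a lipid anchor; mean 40.7 ± 5.53 TPM) and Cdh18 (35.5 ± 9.65 TPM). Cdh24 was at 4.42 ± 0.31 TPM, and Cdh6, at 2.74, 1.36 and 2.60 TPM in lines 66, 67 and 72, was the only one averaging 1 TPM or more whose lines were over 2-fold apart (each SD with n = 3). In 13 of the 18 every line was below 1 TPM, and Cdh8 and Cdh9 were at 0 counts in all lines.

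The catenins tie cadherins to actin. Of 8 measured, 5 were at or above 10 TPM in every line, against 22.6% of all genes. They were led by Ctnnb1 (beta-catenin, 559 ± 25.5 TPM), Ctnna1 (alpha-catenin, 297 ± 14.95 TPM) and Ctnnd1 (p120-catenin, 131 ± 1.66 TPM; SD, n = 3 for each). The lines of these 3 genes were at most 1.09-fold apart. The alpha-catenins of nerve and heart, Ctnna2 and Ctnna3, were at most at 0.442 TPM. Among receptors that associate with cadherins in myoblasts, Cdon was at 253 ± 28.6 TPM, Neo1 at 32.3 ± 3.03 TPM and Boc at 5.01 ± 1.08 TPM (SD, n = 3).

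Jam2 and Jam3 encode immunoglobulin-family adhesion proteins that bind each other across the contact between cells. Jam2 (chr16:84774123-84825928, plus strand) was at 45.9 TPM in line 66, 81.1 TPM in line 67 and 51.0 TPM in line 72, and Jam3 (chr9:27097384-27155421, minus strand) at 57.9, 78.0 and 90.6 TPM. Jam2 was highest in line 67 and Jam3 in line 72, and both were lowest in line 66. The means were 59.3 ± 19.0 TPM for Jam2 and 75.5 ± 16.5 TPM for Jam3 (SD, n = 3), with ranges of 1.77-fold and 1.57-fold. Jam3 was accordingly at 126%, 96.1% and 178% of the level of Jam2, so the order of the partners differed between lines.

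Transcript Jam2-202 held between 74.9% and 77.2% of the level of Jam2. All coding transcripts together held 94.6%, 93.4% and 89.6% in lines 66, 67 and 72, and the rest was the processed transcript Jam2-203. The single coding transcript of Jam3 held between 82.1% and 83.5%, with the rest on retained-intron and processed transcripts. Of the 31-base words of Jam3, 67.8% occurred in no other listed gene, and 1018 were shared with Gm48796 on the opposite strand, which had between 53 and 61 counts. Of 8 relatives and polarity partners of the JAMs, 4 were at or above 10 TPM in every line, against 22.6% of all genes. Among these were the polarity kinase Prkci (64.6 ± 8.74 TPM), the junction scaffold Tjp1 (57.4 ± 2.61 TPM) and Pard3 (43.9 ± 4.30 TPM; SD, n = 3 for each). F11r (JAM-A) was the only one of the 8 averaging 1 TPM or more with lines over 2-fold apart, at 6.49, 3.30 and 1.70 TPM in lines 66, 67 and 72. Pard6b was at 1.53 ± 0.31 TPM (SD, n = 3) and Esam, an endothelial member of the family, at most at 0.184 TPM.

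**Figure D2:**
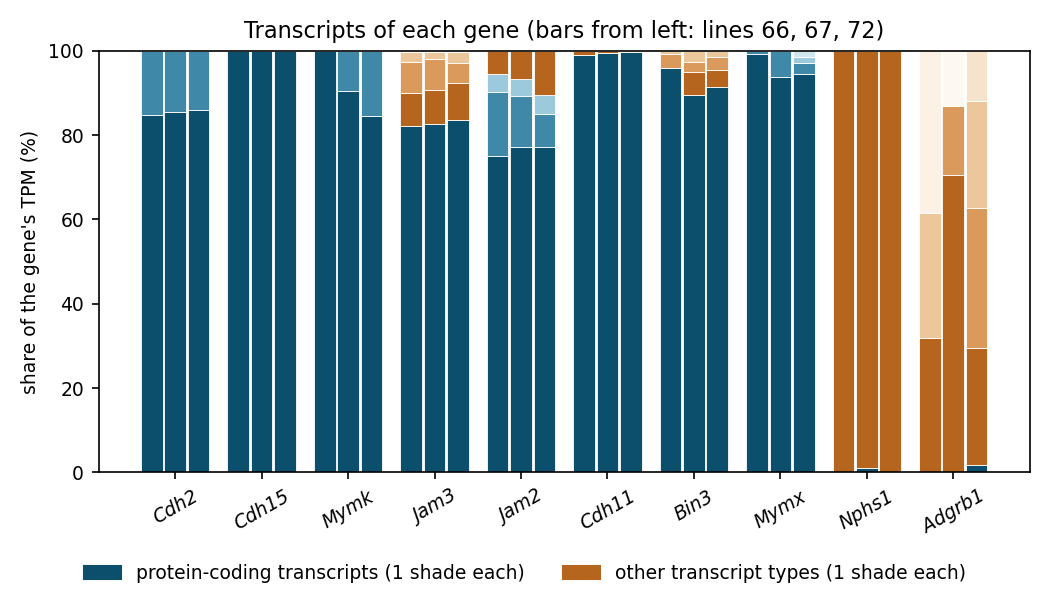
Share of each gene's TPM (percent) on its annotated transcripts, with 3 bars per gene for lines 66, 67 and 72, blue shades for protein-coding transcripts and brown shades for all other types. Coding transcripts hold at least 82.1% in every line for 8 genes, while Nphs1 and Adgrb1 lie almost wholly on other types, and a second coding transcript of Mymk appears in lines 67 and 72.

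Bin3 encodes a BAR-domain protein that acts with Rac1 and Cdc42 on the actin of myotubes. Bin3 (chr14:70100105-70138206, plus strand) was at 20.4 TPM in line 66, 23.8 TPM in line 67 and 19.8 TPM in line 72, a mean of 21.3 ± 2.15 TPM (SD, n = 3). Its lines were 1.20-fold apart, and its coding transcript Bin3-201 held between 89.4% and 95.8% of the level.

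Adgrb1 (BAI1) is an adhesion G protein-coupled receptor that binds phosphatidylserine and signals through ELMO and DOCK1 to Rac1. Adgrb1 (chr15:74516195-74589465, plus strand) had 13 estimated counts in line 66 (95% Poisson interval 6.92 to 22.2), 18 in line 67 (10.7 to 28.5) and 72 in line 72 (56.3 to 90.7), which gave 0.0669, 0.0780 and 0.418 TPM. Line 72 was the highest, and its interval did not overlap those of the other lines. None of these counts in lines 66 and 67, and 0.227 in line 72, were placed on protein-coding transcripts. The transcript with the highest mean level was Adgrb1-206, annotated for nonsense-mediated decay, with 7.25, 17.3 and 37.0 counts in lines 66, 67 and 72, and the rest lay on processed, retained-intron and other decay transcripts.

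Adgrb1-206 has an exon 5 (chr15:74539693-74539871) that begins 14 bases earlier than in the full-length coding transcript Adgrb1-201, and its coding sequence is annotated with 1194 bases against 4746. The stretch across that junction is shown on the plus strand, with the 14 extra bases in capitals.
Adgrb1-206 junction: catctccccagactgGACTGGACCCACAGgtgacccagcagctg

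The other genes of phosphatidylserine recognition and of the ELMO-DOCK route numbered 15. Of these, 5 were at or above 10 TPM in every line, against 22.6% of all genes. The highest were the GTPase Rac1 (387 ± 5.64 TPM), the phosphatidylserine-binding Anxa5 (283 ± 31.4 TPM) and the engulfment receptor Megf10, which is expressed in satellite cells (84.4 ± 5.21 TPM; SD, n = 3 for each). C1ql4 and Timd4 were at 0 counts in all lines.

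Nphs1 (nephrin) is an immunoglobulin-family protein of the kidney filter that also takes part in fusion of muscle cells. Nphs1 (chr7:30458315-30487223, plus strand) was at 0.902 TPM in line 66, 0.933 TPM in line 67 and 0.419 TPM in line 72, from 83.8 (95% Poisson interval 66.8 to 104), 81.0 (64.3 to 101) and 36.6 (25.7 to 50.5) estimated counts. Lines 66 and 67 lay above line 72. All but 2.01 of the counts, in line 67, were on Nphs1-204, a retained-intron transcript of 1987 bases with exons at chr7:30484915-30486749 and chr7:30486839-30486990, in the last part of the gene. The coding transcripts thus had 0, 2.01 and 0 counts in lines 66, 67 and 72, all under the limit of 3 counts.

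Of the 1957 words of 31 bases in Nphs1-204, 210 (10.7%) also occurred in transcripts of Rps12, a ribosomal protein gene, on the opposite strand. They lay within the first 264 bases, and Rps12 was at 5548, 4613 and 4637 TPM in lines 66, 67 and 72. Over all transcripts of Nphs1, 88.5% of the words occurred in no other listed gene on either strand. The others were shared with 1272 genes, the largest number (454) with Nphs1os, which was at 0 counts in all lines. The part of reads from Rps12 or from other genes in the counts of Nphs1 was not tested. The start of Nphs1-204 is shown on the plus strand, at chr7:30484915-30485004, with capitals for bases that lie in shared words, which here are all of them.
Nphs1-204 start: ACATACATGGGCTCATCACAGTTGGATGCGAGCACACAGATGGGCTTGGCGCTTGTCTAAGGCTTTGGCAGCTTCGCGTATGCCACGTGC

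Of the markers of podocytes, the kidney cells that make nephrin, Wt1 had at most 4 counts, and Podxl, a surface protein of other cell types too, was at 12.2, 7.99 and 7.28 TPM in lines 66, 67 and 72. The partners of nephrin were measured well above it. The adaptors Nck1 (54.4 ± 7.66 TPM) and Nck2 (24.6 ± 2.13 TPM) and the nephrin relative Kirrel (36.7 ± 2.50 TPM) were at or above 10 TPM in every line (SD, n = 3). Kirrel3 was at 0.276 ± 0.057 TPM (SD, n = 3) and Kirrel2 at 0 counts.

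Actin regulators of the fusion site had the largest share of genes at this level among the 9 surrounding groups. Of 18, 15 were at or above 10 TPM in every line, against 22.6% of all genes. Arpc2 (451 ± 29.3 TPM) and Actr3 (392 ± 25.8 TPM), subunits of the Arp2/3 complex that branches actin, and the GTPase Cdc42 (337 ± 8.50 TPM; SD, n = 3 for each) were highest. Arhgap26 (1.38 ± 0.38 TPM) and the blood-cell nucleation factor Was (0.401 ± 0.097 TPM; SD, n = 3) were lowest. None of the 17 genes of this group that averaged 1 TPM or more had lines over 2-fold apart, against 7.19% of all such genes.

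Of 23 other surface and membrane genes of fusion, 15 were at or above 10 TPM in every line, against 22.6% of all genes. They were led by Cd44 (428 ± 49.8 TPM), the tetraspanin Cd81 (400 ± 26.1 TPM) and the integrin Itgb1 (369 ± 17.6 TPM; SD, n = 3 for each). Itga3 was at 59.8, 28.5 and 30.5 TPM in lines 66, 67 and 72, 2.10-fold apart. It lies on chromosome 11, where line 66 stood above the mean of lines 67 and 72 by a median of 0.32 on the log2 scale over 699 genes averaging 10 TPM or more. The part of this shift in the level of Itga3 was not tested. The lipid receptor Cd36 (1.89, 3.95 and 5.57 TPM) and the integrin Itga9 (1.97, 1.16 and 2.46 TPM) also had lines over 2-fold apart. Nfatc2 was at 0.477 ± 0.020 TPM (SD, n = 3) and Fer1l5 had at most 4 counts. Over the 9 groups of surrounding genes, 51 of the 103 measured were at or above 10 TPM in every line, against 22.6% of all genes. Lines were over 2-fold apart for 5 of the 71 that averaged 1 TPM or more, close to the 7.19% of all such genes.

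**Figure D3:**
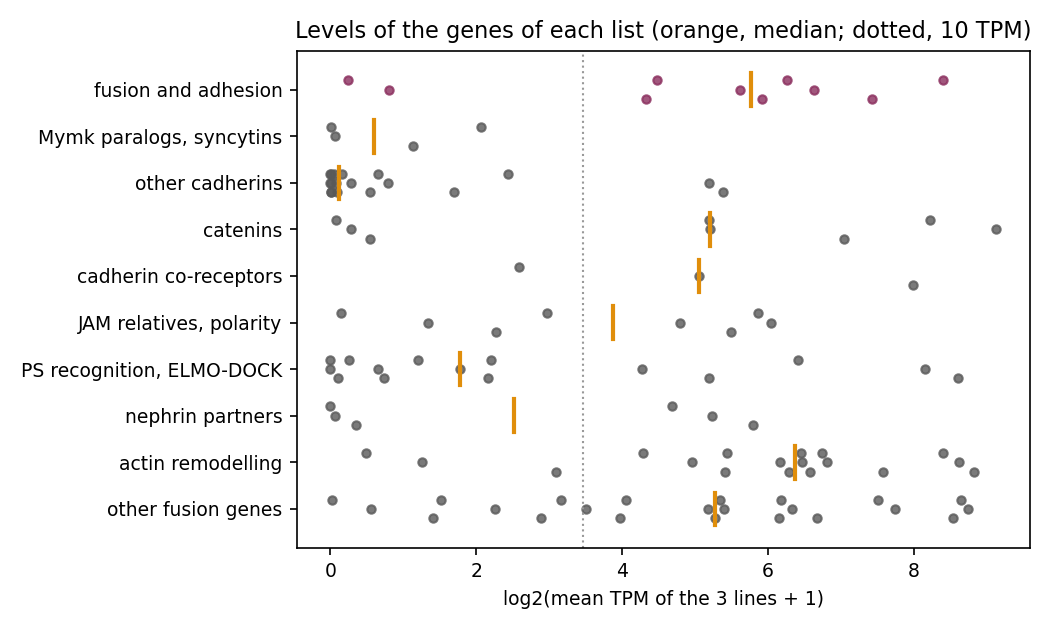
Mean level over the 3 lines, as log2(TPM + 1), of each gene in the 10 groups, with each group's median in orange and 10 TPM as a dotted line. Actin remodelling has 15 of 18 genes at or above 10 TPM in every line and the other cadherins 2 of 18, against 22.6% of all genes.

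The spread between lines was described next. Among the 8 genes averaging 1 TPM or more, the median of highest over lowest line was 1.64, from 1.13 for Cdh2 to 2.38 for Mymx, against 1.22 over the 12528 such genes. Mymk, Mymx, Cdh11 and Jam3 were lowest in line 66 and highest in line 72, 4 of 8 genes against 27% of all such genes, an order of lines picked after the values were seen. Cdh2 and Cdh15 differed little between lines, and Jam2 and Bin3 were highest in line 67.

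Genes of differentiated muscle showed the same order of lines for 11 of 13 (27% of all genes averaging 1 TPM or more), and all 13 were lowest in line 66, against 44.2% of all such genes. Their summed level was 2256, 3230 and 3909 TPM in lines 66, 67 and 72. The lines were over 2-fold apart for 5 of the 13, against 7.19% of all such genes. These were Actc1 (281, 409 and 575 TPM) and Myl1 (169, 287 and 340 TPM), both of the contractile apparatus, the transcription factor Mef2c (19.9, 39.9 and 48.8 TPM), the perinatal myosin Myh8 (8.34, 18.8 and 27.2 TPM) and the muscle creatine kinase Ckm (4.52, 6.89 and 9.30 TPM). The 6 cell-cycle genes were also lowest in line 66 (44.2% of all such genes were), where their summed level was 794 TPM against 1067 and 1059 TPM in lines 67 and 72. Myod1, the myogenic regulator of committed myoblasts, was highest in line 66 and lowest in line 72, at 791, 702 and 579 TPM, while Pax7 was at 136, 143 and 154 TPM. The part of the state of differentiation in the line differences of Mymk, Mymx, Cdh11 and Jam3 was not tested. The 9 chromosomes that carry the 10 genes had median log2 ratios between -0.06 and 0.06 when each line was set against the mean of the others.

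**Figure D4:**
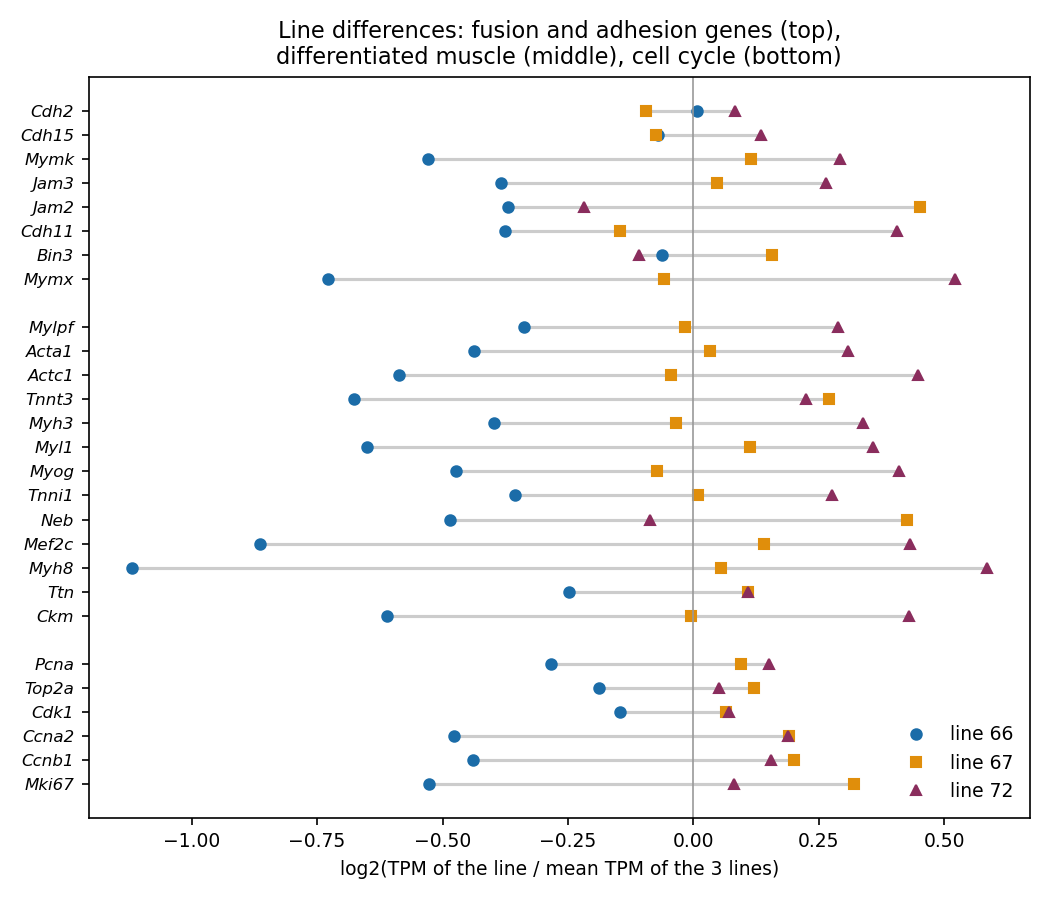
Log2 of the TPM in each line over the mean TPM of the 3 lines, for the 8 fusion and adhesion genes averaging 1 TPM or more (top), 13 genes of differentiated muscle (middle) and 6 cell-cycle genes (bottom). Line 66 is lowest for Mymk, Mymx, Cdh11, Jam2 and Jam3 and for all genes of the other groups. Among the 8 genes at the top, Cdh2, Cdh15 and Bin3 lie closest to 0.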

How the data were processed

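Libraries of 3 lines were made with a stranded kit from poly-A-enriched RNA. The submitters' processing notes name bcl2fastq 2.20, fastp 0.20, kallisto 0.46.1 and GRCm39, and the annotation and strand setting are not given in the sources used here. The authors deposited an estimated count for each of 121798 transcripts, made by splitting reads between the transcripts they fit, without normalization. TPM, as deposited, divides these counts by effective length and sets the total of a library to 1000000.

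Transcripts were matched by identifier to GENCODE M21 (GRCm38), whose coordinates are given, and 1112 without a match (0.493% to 0.535% of counts) were left out. Both measures were summed over the transcripts of a gene. Sequences and 31-base words were read from the GENCODE M21 transcripts. The 10 genes, the lists and the rules were chosen with earlier results of these data known, and support nothing on their own. The genes named were the 10 genes, every gene of a list of at most 6, and otherwise the 3 highest and 2 lowest by mean level and those with lines over 2-fold apart; Arvcf was not analysed here, and 1 gene of the lists is not reported here. Rps12 and overlapping genes were picked for naming with their values known. Lines have 1 library each, so no p-value was computed, and the SD covers the spread between lines. Alternatives were a pseudocount of 0.1, other limits, CPM, scaling by TMM (edgeR 4.0.16, counts rounded to whole numbers) or by size factors, coding transcripts only, and leaving out each line. Scripts were tested on simulated data. The software was R 4.3.3 and Python 3.11.15 with pandas 2.3.3, numpy 2.4.6, matplotlib 3.10.9 and scipy 1.17.1.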

Additional observations from a re-analysis of the deposited data

How the results depend on the processing

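The median level of the 10 genes, 5.72 as log2(TPM + 1), was 6.39 with CPM, 6.39 with TMM scaling and 6.39 with size factors, all without correction for length. Genes with lines over 2-fold apart numbered 1 (Mymx), but 5 at 1.5-fold (Mymk, Mymx, Cdh11, Jam2 and Jam3) and 2 with no filter on level and 0.1 TPM added (Mymx and Adgrb1). Leaving out each line in turn gave 0 to 1, with 0 without line 66 and without line 72, so that the call for Mymx rests on both of these lines. Genes with 1 transcript above 90% of the level in every line numbered 4 by TPM and 7 by estimated counts, where short transcripts weigh less. Of 60 alternative values of single levels, 51 shifted by less than 1 SD of the lines. The 30 alternative ratios of highest to lowest line (CPM, TMM and size factors) were all within 1.5 times of the ratio in TPM. No paired analysis was possible because all libraries belong to 1 group. Depth limits Adgrb1 and the coding transcripts of Nphs1, and transcript splits within a gene are estimates.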
